A study of Aptenodytes patagonicus with 3 samples.

Results

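Mitochondrial carriers and uncoupling proteins were described in the pectoralis muscle, the breast muscle that drives the flippers, of king penguin juveniles (Aptenodytes patagonicus). A probe set was included where the platform annotation gave it a single gene symbol that starts with SLC25A or is UCP1, UCP2 or UCP3. This rule found 70 of 36813 probe sets, which stand for 34 of the 12913 genes with a symbol of their own. No measured value entered the rule, but where a gene had several probe sets the brightest, by mean over the arrays, stood for it.

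All 3 arrays came from 1 group, the Artificially Acclimated (AA) penguins. They were wild juveniles captured late in the first year of life, before any contact with cold water, which moulted in captivity and were then placed in water at 8 °C for 10 immersions of 5 hours, 1 every 2 days. The labels give bird 1 and bird 3 as females and bird 2 as a male, and each bird was sampled by 1 biopsy. The never-immersed birds to which the study compared them, and its sea-acclimatized birds, were not analysed here, so no effect of immersion is given and the values describe how the AA birds differed from each other. A penguin RNA binds to chicken probes as well as its sequence allows, so the level of 1 gene is not set against that of another, and dim or bright describes only the signal of a probe set on the array. Captivity, moult, feeding and immersion cannot be told apart in these birds.

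Mitochondrial carriers are small proteins of the inner mitochondrial membrane, each built from a repeated pair of membrane helices, that exchange nucleotides, phosphate, carboxylates, amino acids, cofactors or metals between the cytosol and the matrix. Uncoupling proteins belong to the same family and are named for letting protons return to the matrix without making ATP, which releases the energy as heat. Neither proton flow nor heat was measured here. Birds have no brown fat and are known to lack UCP1, and their muscle uncoupling protein, avUCP, is the counterpart of mammalian UCP3. In bird muscle, avUCP and the adenine nucleotide translocases have been studied as routes for heat production and for limiting superoxide release.

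The deposited values were quantile normalized, which makes the distributions of the arrays nearly equal. Median log2 values were 8.62, 8.63 and 8.62 for birds 1 to 3, with a lower quartile of 7.87 on every array. Some muscle markers were bright, for example fast troponin T (TNNT3) at 14.80, 14.77 and 14.88 in birds 1, 2 and 3. Others were dim, for example myosin light chain MYL2 at 7.55, 7.70 and 7.18. Markers of other cells were read too, with no detection call. Of 9 measured erythrocyte markers, 5 were highest in bird 1, 4 were lowest in bird 2 and 4 were lowest in bird 3. Of all genes, 27.5% were highest in bird 1 and 32.5% were lowest in bird 2. Of 7 fibroblast markers, 5 were highest in bird 1, and of 6 leukocyte markers, 5 were lowest in it. The shares of all genes lowest in bird 1 and in bird 3 were not computed. The measured slow muscle markers were lowest in bird 2 for 5 of 9. Their median deviations from a gene's mean were 0.07, -0.20 and 0.12 log2 units in birds 1, 2 and 3. The male minus females difference of the 9 ran from -0.97 to 0.33, with a median of -0.30, beside 0.04 over all genes. The male was lower than the females' mean in 5 of the 9 and higher in 4. Among the lower, slow myosin light chain MYL3 read 11.44, 10.56 and 11.47. The log2 of a list's summed signal was 16.39, 15.80 and 16.17 for erythrocytes, 13.43, 12.79 and 12.70 for fibroblasts, 12.14, 12.56 and 12.62 for leukocytes and 14.83, 14.70 and 14.86 for slow muscle in birds 1, 2 and 3. Such a sum follows its brightest probe sets, for erythrocytes those of HBA1, HBAD and HBE and for slow muscle that of TNNC1.

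Most carriers differed little between the birds, and a few differed by several fold. The SD over the 3 birds had a median of 0.21 log2 units over the 34 genes and of 0.20 over all 12913 genes. The difference between the highest and the lowest bird exceeded 1 log2 unit, a 2-fold difference in signal, in 5 of the 34 genes, beside 6.01% of all genes. These 5 were SLC25A37, UCP3, SLC25A42, SLC25A36 and SLC25A15. In the other 29 genes this range lay between 0.07 for SLC25A17 and 0.85 for SLC25A46. The brightest probe sets of SLC25A37, SLC25A42, SLC25A36 and SLC25A15 are of a type that can bind several transcripts, and with such probe sets left out, only UCP3 of 31 genes had a range over 1 log2 unit, beside 5.56% of all genes.

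**Figure D1:**
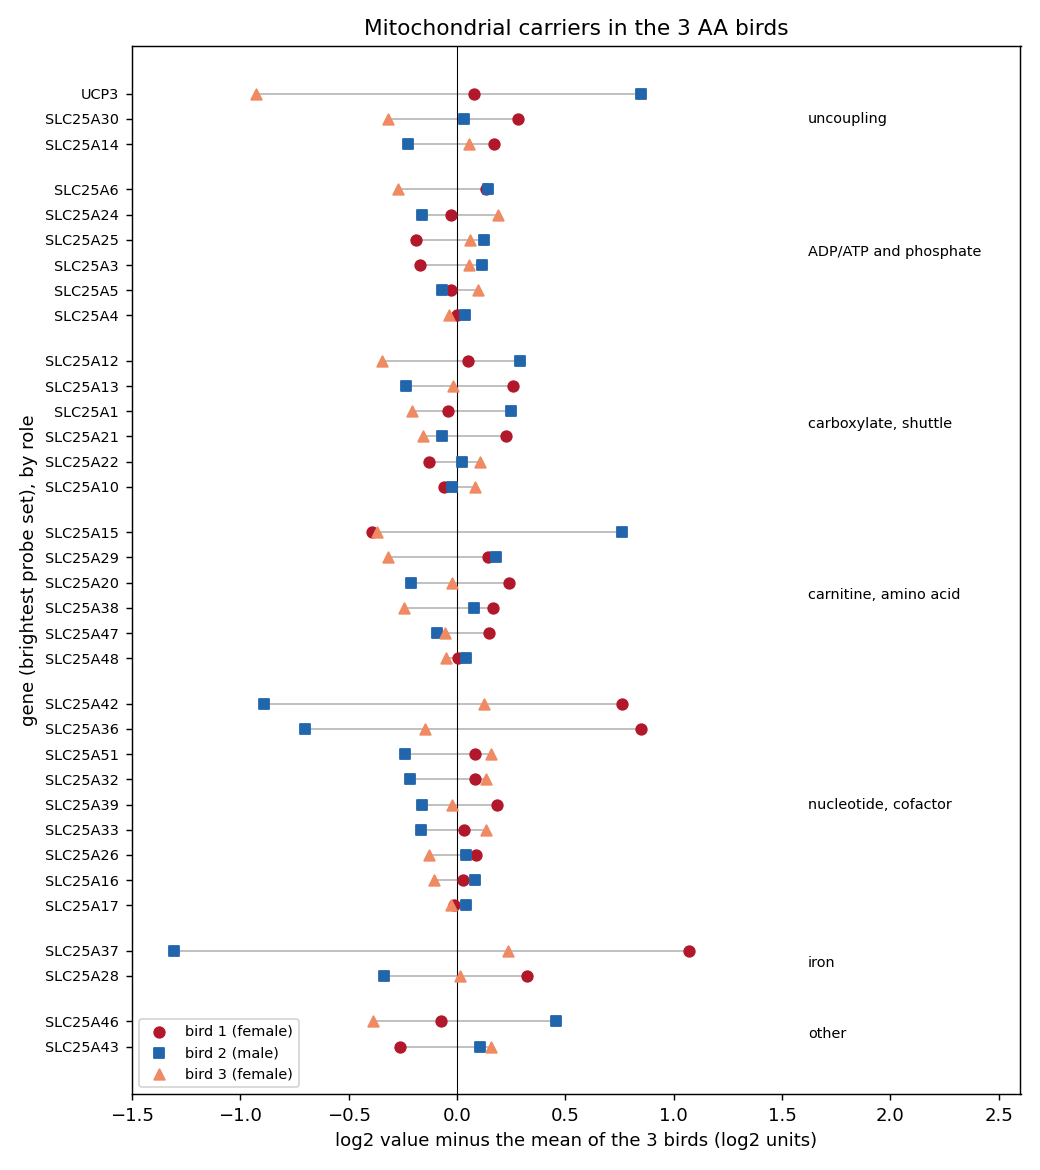
Each row is 1 of the 34 genes, grouped by role and, within a role, ordered by SD, and each point is 1 bird's log2 value minus the mean of the 3 birds on the brightest probe set. Grey lines span the lowest to the highest bird, and SLC25A37, UCP3, SLC25A42, SLC25A36 and SLC25A15 have the widest lines, from 2.38 down to 1.15 log2 units.

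**Figure D2:**
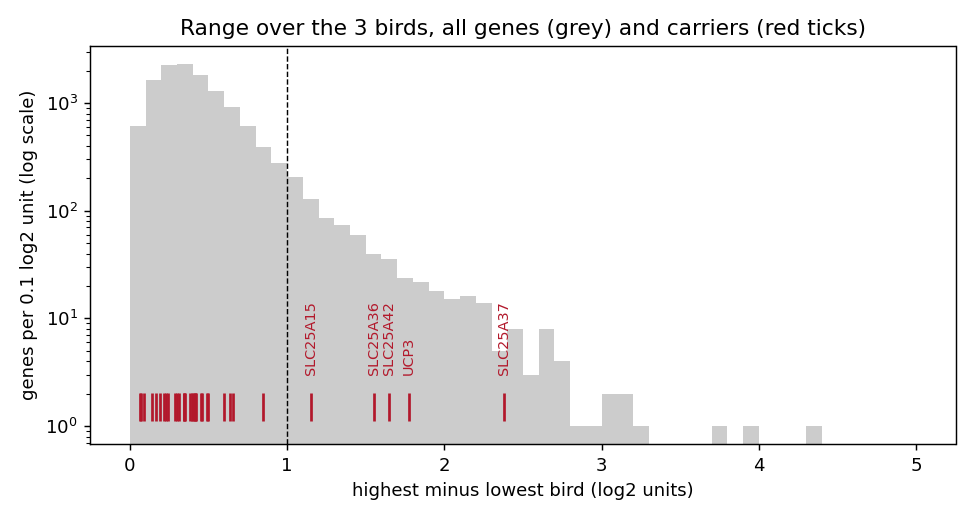
The grey histogram shows the range over the 3 birds, in log2 units, for all 12913 genes, with the number of genes on a log scale, and red ticks show the 34 carriers (the height of the ticks has no meaning). The dashed line stands at 1 log2 unit, above which lie 6.01% of all genes and 5 carriers.

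The only label that differs between the birds is sex, and the male was set against the females with limma over all 36813 probe sets. No probe set passed an adjusted p of 0.05 (0 called, 0%), and 3600 probe sets, 9.78% of all, had an unadjusted p under 0.05. Among the 34 genes, on their brightest probe sets, the male minus females difference was largest in size in the 5 genes with a range over 1 log2 unit. It was -1.96 for SLC25A37, and the next in size after the 5 was SLC25A46, at 0.69. Range and difference come from the same values of the birds, so this match is largely arithmetic and no result about sex. Only 1 residual degree of freedom was left, and the male, being alone, was assumed to have the spread of the females. With 1 bird against 2, an exact permutation test of a single gene could not give a two-sided p under 0.333.

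UCP3 encodes the muscle uncoupling protein and was the only gene of UCP1, UCP2 and UCP3 with a probe set of its own. Its single probe set read 9.87 in bird 1, 10.63 in bird 2 and 8.86 in bird 3 (9.79 ± 0.89, SD, n = 3). The male was highest, and the highest and lowest birds differed 3.42-fold. The females differed from each other by 1.01 log2 units, or 2.01-fold. The male minus females difference was 1.27 log2 units (limma standard error 0.38, adjusted p = 0.319). Leaving out bird 1 gave 1.77 and leaving out bird 3 gave 0.77 for the same difference. No other probe set was available to check it.

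The other carriers of this subfamily varied less. SLC25A14, also called UCP5 or brain mitochondrial carrier protein, read 10.33, 9.94 and 10.22 in birds 1, 2 and 3. SLC25A30, the kidney mitochondrial carrier protein, read 10.89, 10.64 and 10.29. Neither had the order of UCP3, in which the male was above bird 1 and bird 1 above bird 3.

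Carriers of adenine nucleotides and phosphate, the substrates and product of ATP synthesis, had the smallest median SD of the sets by role. On their brightest probe sets, all 6 measured genes had a range of at most 0.41 log2 units, and this median was 0.16. SLC25A4, the adenine nucleotide translocase ANT1 that is the main form of heart and skeletal muscle in mammals, had the smallest SD of all 34 genes, with 13.10, 13.14 and 13.07 in birds 1, 2 and 3 (13.10 ± 0.035, SD, n = 3). Its other probe sets were less steady, reading 11.25, 11.60 and 11.30 on one and 8.41, 8.31 and 9.19 on the dimmest.

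The translocase SLC25A6 read 13.20, 13.21 and 12.80, with bird 3 lowest, and its other probe set read 8.45, 8.41 and 7.97, also with bird 3 lowest. SLC25A5, a translocase of dividing cells in mammals, read 10.14, 10.09 and 10.26 (10.16 ± 0.087, SD, n = 3). These translocases are close in sequence, and whether their probe sets share signal was not tested. SLC25A3, which brings phosphate into the matrix, read 13.30, 13.58 and 13.53 on its brighter probe set. On its dimmer probe set it read 8.95, 8.79 and 8.70, with bird 1 highest. SLC25A24 and SLC25A25, which exchange ATP-Mg for phosphate, had ranges of 0.35 and 0.31 on their brightest probe sets. The dimmest probe set of SLC25A25 had a range of 0.58.

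Carboxylate carriers and those of the malate-aspartate shuttle carry citrate, dicarboxylates, aspartate and glutamate, and the shuttle moves reducing equivalents into mitochondria. In the 6 measured genes the range lay between 0.14 and 0.64 log2 units, the male was higher than the females' mean in 3 and lower in 3, and no bird was lowest in more than 3. The muscle aspartate-glutamate carrier SLC25A12 (aralar) read 12.31, 12.55 and 11.92 in birds 1, 2 and 3. Its relative SLC25A13 (citrin) read 8.84, 8.35 and 8.57, so the male was highest for aralar and lowest for citrin on these probe sets. The other citrin probe sets read 8.45, 8.79 and 8.07, with the male highest, and 7.97, 7.96 and 8.36, with the male lowest. SLC25A1, the citrate carrier, read 10.94, 11.23 and 10.77, and its other probe set put the birds in the same order, with 8.68, 9.26 and 8.55. SLC25A10, the dicarboxylate carrier, read 9.25, 9.29 and 9.40 and had the male minus females difference nearest to 0, at -0.03.

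Acylcarnitine and amino acid carriers held 1 of the wide genes. SLC25A15, which exchanges ornithine for citrulline and is known from the urea cycle in mammals, read 9.80, 10.96 and 9.83 in birds 1, 2 and 3 (10.20 ± 0.66, SD, n = 3). The females differed by 0.03 log2 units, and the male lay above their mean by 1.14 (limma standard error 0.23, adjusted p = 0.198), or 2.20-fold. Its other probe set, which is made for a single transcript, read 7.79, 8.47 and 8.06, again with the male highest, 0.54 above the females' mean (adjusted p = 0.528 in the limma fit to such probe sets alone).

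SLC25A20, the carnitine-acylcarnitine carrier through which fatty acids enter the matrix, read 9.81, 9.36 and 9.55, with the male lowest, while its dimmer probe set read 7.63, 7.97 and 7.82, with the male highest. The remaining genes of this set were SLC25A29, which carries basic amino acids, SLC25A38, which brings in glycine for heme synthesis, SLC25A47 and SLC25A48. Their ranges lay between 0.092 and 0.50 log2 units. SLC25A48 read 8.55, 8.58 and 8.49, among the 5 smallest SDs.

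On their brightest probe sets, nucleotide and cofactor carriers were lowest in the male in 6 of 9 genes, beside 32.5% of all genes. The male was higher than the females' mean in 3 of 9, beside 55% of all genes. Of the 6, SLC25A33 and SLC25A51 had 1 probe set each. The next brightest probe set had the male lowest for SLC25A42 but highest for SLC25A36, SLC25A32 and SLC25A39. SLC25A42, which brings coenzyme A into the matrix, read 11.08, 9.44 and 10.45 in birds 1, 2 and 3 (10.32 ± 0.83, SD, n = 3). The male lay below both females, by 1.02 log2 units from the nearer one, and the females' mean was 2.52-fold the male's signal (difference -1.33, limma standard error 0.30, adjusted p = 0.218). The male was lowest on all 5 probe sets of SLC25A42, with ranges over the birds from 0.33 to 1.65, and with the mean of all 5 the difference was -0.64. The next brightest read 9.25, 8.26 and 9.12 and is made for a single transcript, but it and another, at 8.02, 7.93 and 8.34, are designed for opposite strands of 1 sequence.

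SLC25A36, a pyrimidine nucleotide carrier, read 10.93, 9.38 and 9.93 (10.08 ± 0.79, SD, n = 3). The male was lowest there, with a male minus females difference of -1.05 (limma standard error 0.38, adjusted p = 0.409), but the females themselves differed by 1.00 log2 units. The difference was -0.55 without bird 1 and -1.55 without bird 3. On its other probe sets, which read 9.11, 9.81 and 9.59, and 7.95, 8.09 and 7.55, the male was highest. With the mean of all its probe sets the difference was -0.09, so the low value of the male was that of 1 probe set.

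The other cofactor carriers were steadier. SLC25A17, a carrier of peroxisomes and not of mitochondria, read 8.53, 8.59 and 8.52, the second smallest SD, and its other probe set read 8.44, 8.58 and 8.57. SLC25A16, SLC25A26 (S-adenosylmethionine), SLC25A32 (folate and FAD), SLC25A33 (pyrimidine nucleotides), SLC25A39 (glutathione) and SLC25A51 (NAD) had ranges from 0.19 to 0.40 log2 units. The 5 probe sets of SLC25A32 did not give 1 order, with the male lowest on 2 and highest on 2.

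Iron carriers showed the widest difference. SLC25A37, mitoferrin-1, which brings iron into mitochondria and is needed for heme synthesis in developing erythrocytes, read 11.23, 8.85 and 10.39 in birds 1, 2 and 3 (10.16 ± 1.21, SD, n = 3). Bird 1 was highest and the male lowest, 5.19-fold apart, and the male minus females difference was -1.96 (limma standard error 0.34, adjusted p = 0.186). The other 3 probe sets of SLC25A37 did not repeat this. They read 9.50, 9.16 and 9.09, then 7.66, 8.33 and 7.79, then 7.46, 7.49 and 7.48. The male was highest on the last and the one before it. With the mean of all 4 probe sets the difference was -0.37.

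SLC25A28, mitoferrin-2, the form found in most tissues, read 13.83, 13.17 and 13.52 on its brightest probe set, in the same order as the brightest probe set of mitoferrin-1. Its other probe set, at 11.87, 12.21 and 12.23, had bird 1 lowest. On brightest probe sets, only HBA1, HBAD and TAL1 of the 9 measured erythrocyte markers had the order of mitoferrin-1. The other probe sets of mitoferrin-1 did not repeat this order, and the share of all genes with this order was not computed. The hemoglobin gene HBA1 read 14.825, 14.444 and 14.767, and the hemoglobin gene HBAD read 14.95, 14.06 and 14.41. The next brightest probe sets of HBA1, at 14.700, 14.525 and 14.648, and of HBAD, at 12.81, 10.92 and 11.17, kept this order. The dimmest probe sets of HBA1, at 8.33, 8.68 and 8.36, and of HBAD, at 8.67, 8.21 and 8.94, had other orders. TAL1, a transcription factor of blood precursors, read 11.54, 10.43 and 11.03. The other probe sets of TAL1 had other orders, at 9.82, 9.37 and 9.15, and at 7.92, 8.43 and 8.48. The transferrin receptor TFRC read 9.89, 8.42 and 8.35, EPB42 read 9.51, 9.67 and 9.13, and RHAG read 8.60, 8.84 and 7.96, with other orders. The remaining markers also had other orders, HBE at 14.23, 13.74 and 14.27, SLC4A1 at 9.22, 9.02 and 8.79, and HBZ at 8.364, 8.402 and 8.366. Over the 9 measured markers, the median deviation from a gene's mean was 0.15, -0.23 and -0.06 log2 units in birds 1, 2 and 3. The part of blood cells in these values was not tested, and in a biopsy more cells of a type and more RNA per cell cannot be told apart. Of the other carriers tied to heme, SLC25A39 read 11.02, 10.68 and 10.81, in the order of mitoferrin-1, but its other probe sets, at 10.47, 10.64 and 10.64 and at 7.57, 7.61 and 7.86, had bird 1 lowest. SLC25A38 read 9.80, 9.71 and 9.38, with bird 3 lowest.

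**Figure D3:**
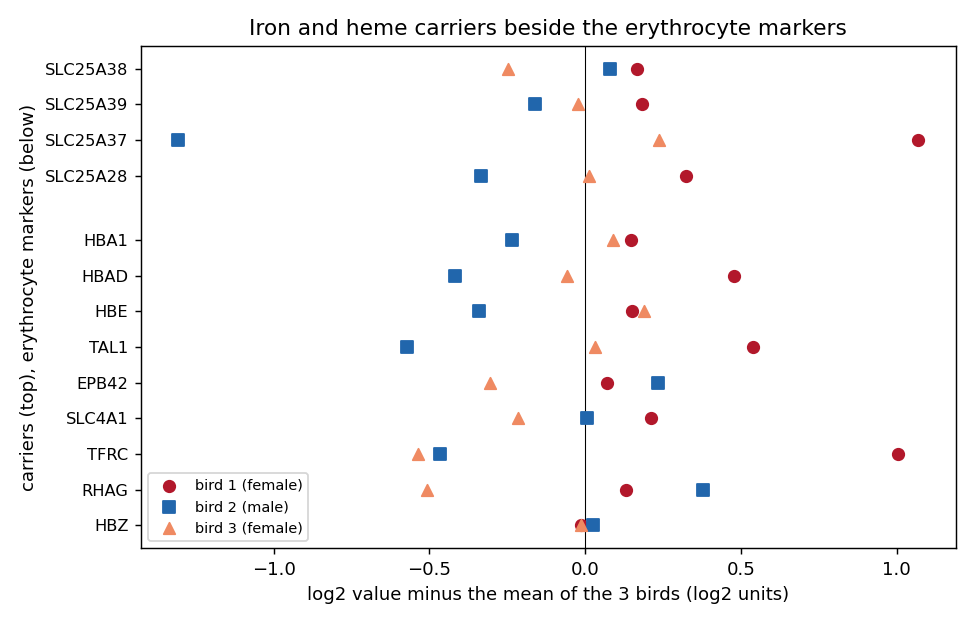
Points are each bird's log2 value minus the mean of the 3 birds, for SLC25A38, SLC25A39, SLC25A37 and SLC25A28 at the top and the 9 measured erythrocyte markers below, each on its brightest probe set. Bird 2 is the lowest for SLC25A37, SLC25A28 and SLC25A39 and for 4 of the 9 markers, and bird 3 is the lowest for another 4. The spread of SLC25A37 (SD 1.21) is wider than that of any marker shown, TFRC having 0.87. The next brightest probe set of HBAD, which is not shown, had an SD of 1.02.

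The remaining genes were SLC25A46, a protein of the outer mitochondrial membrane tied to mitochondrial shape, and SLC25A43, whose substrate is not settled. SLC25A46 read 7.63, 8.16 and 7.32, a male minus females difference of 0.69 (limma standard error 0.25, adjusted p = 0.412), and on its other probe set, at 7.07, 6.78 and 7.23, the male was lowest. SLC25A46 and SLC25A51 are the only carriers here that the king penguin assembly bAptPat1.pri.cur places on chromosome Z, of which males carry a pair. SLC25A51, at 7.27, 6.94 and 7.34, was lowest in the male. Over the 464 genes placed on this chromosome the median male minus females difference was 0.13. Signal was low for these genes, which with SLC25A21 and SLC25A47 are the 4 carriers in the dimmest 25% of all probe sets.

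By gene symbol, 33 of the 34 genes matched the RefSeq table of the same assembly, all but UCP3. The wide genes lay apart, SLC25A37 on chromosome 24, SLC25A42 on 25, SLC25A36 on 6 and SLC25A15 on 1. Carriers were direct neighbours among protein-coding genes in the pairs SLC25A29 and SLC25A47 on chromosome 7, and SLC25A5 and SLC25A43 on chromosome 9. Neither pair shared an order of the birds.

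**Figure D4:**
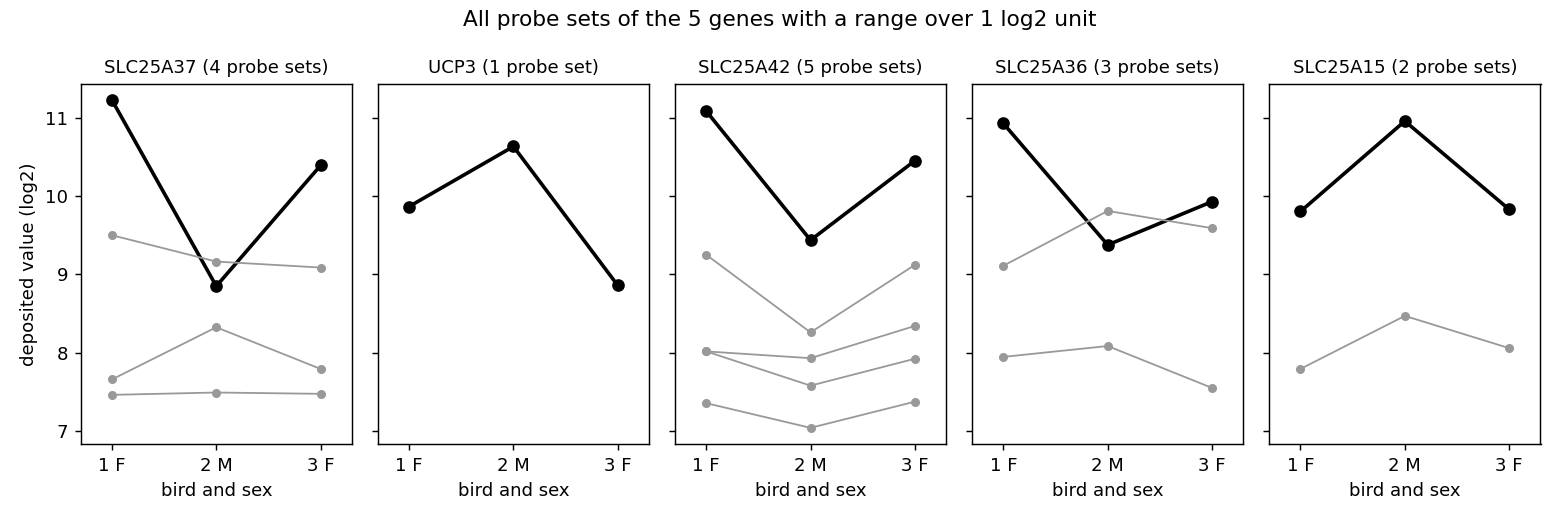
Each panel shows the deposited log2 values of all probe sets of 1 gene in birds 1, 2 and 3, with F for female and M for male. Black marks the brightest probe set, grey marks the others, and lines only join the values of 1 probe set. The male is lowest on all 5 probe sets of SLC25A42 and highest on both of SLC25A15, while the probe sets of SLC25A37 and SLC25A36 disagree. Of the SLC25A42 probe sets, 2 are designed for opposite strands of 1 sequence.

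Probe sets of 1 gene often disagreed, in this family and over all genes. Of the 34 genes, 23 had more than 1 probe set. The male lay above the females' mean on every probe set in 8 of them, below it on every probe set in 3 (SLC25A14, SLC25A24 and SLC25A42), and on different sides in 12. This split was not computed over all genes. Between the brightest and the next probe set of a gene the lowest bird was the same in 6 of 23 genes, beside 37.2% of 7076 genes with several probe sets. The highest bird was the same in 9 of 23, beside 37.7% of those 7076 genes. The sign of the male minus females difference was the same in 14 of 23, beside 53.9% of them.

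Taken by bird, the 34 genes went both ways, and 1 male cannot stand for a sex. The male was higher than the females' mean in 18 genes, beside 55% of all genes, and the median difference was 0.04 log2 units in the 34 genes and 0.04 in all genes. The male was lowest in 14 genes, beside 32.5% of all genes, and highest in 13, beside 41.5%, so it lay outside the females in 27, beside 74%. Bird 1 was highest in 13 genes, beside 27.5% of all genes. Between the females, bird 1 was above bird 3 in 23 of 34 genes, beside 49% of all genes, with a median difference of 0.19 log2 units. Over all 70 probe sets of these genes, bird 1 was above bird 3 in 38, beside 49.6% of all named probe sets. The difference between the females was noticed after the values were seen and was not tested.

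Genes that work with the carriers were described beside them. In a list of 21 partners, 17 were measured, among them the outer membrane channels VDAC1, VDAC2 and VDAC3, the pyruvate carrier subunit MPC2 and mitochondrial creatine kinase CKMT2. None of the 17 had a range over 1 log2 unit, beside 6.01% of all genes, and their median SD was 0.25, beside 0.20 over all genes. The male was higher than the females' mean in 8, beside 55% of all genes, and lower in 9. VDAC2 read 13.35, 13.55 and 13.63, and CKMT2 read 13.75, 13.36 and 13.53. Carnitine acetyltransferase CRAT, which handles acetyl groups bound to coenzyme A, read 10.78, 10.18 and 10.96 and was the partner with the widest range, at 0.78.

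In a list of 19 genes of the respiratory chain, matrix enzymes and mitochondrial upkeep, 12 were measured. Their median deviations were 0.04, -0.06 and 0.08 log2 units in birds 1, 2 and 3. TFAM, which maintains mitochondrial DNA, was the only one of the 12 with a range over 1 log2 unit, beside 6.01% of all genes. It read 10.24, 9.17 and 10.23, lowest in the male.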

How the data were processed

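Pectoralis RNA of 3 AA birds had been hybridized, 1 bird per Affymetrix Chicken Genome array. The authors summarised probes with MaxRS, a method for heterologous hybridization, and deposited log2 values after quantile normalization. The sources used here do not give the number of arrays normalized together. Limma is named in the submitters' processing notes, with no version.

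The deposited values were used unchanged. The platform annotation named genes, and of 36813 probe sets 26041 had 1 symbol, 170 several and 10602 none. Probe set IDs ending _s_at, _x_at or _a_at were taken as able to bind several transcripts. No detection call was used. Male and females were compared with limma 3.58.1 in R 4.3.3 (lmFit, eBayes, Benjamini-Hochberg over all probe sets, threshold 0.05). The step was run on simulated data in which the male had the spread of the females, so it could not check that assumption. All other values are descriptions, and the number of arrays limits their precision. Of 51 genes listed by role, 34 were measured.

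Values per bird were due for the UCP genes, SLC25A3 to SLC25A6, SLC25A20, SLC25A37, the 5 largest and 5 smallest SDs, ranges over 1 log2 unit and the largest and smallest sex differences. Other genes were named after their values were seen. The genes and lists were chosen with earlier results of these data known. The marker lists also held adipocyte, endothelial and smooth muscle genes, whose median deviations in birds 1, 2 and 3 were -0.12, -0.08 and 0.11, then -0.09, 0.09 and -0.06, then -0.06, 0.25 and -0.19. For fast muscle these were -0.02, 0.04 and 0.00.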

Additional observations from a re-analysis of the deposited data

How the results depend on the processing

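The number of carriers with a range over 1 log2 unit was 5 with quantile normalization run again, with median centring and without the dimmest 25% of probe sets. The shares of all genes were 6.01%, 6.03% and 6.62% in these settings. Normalizing again or centring could change little, because the deposited values were already quantile normalized. The number was 1 of 34 with the mean of all probe sets of a gene, beside 2.80% of all genes. It was 1 of 31 once probe sets able to bind several transcripts were left out, beside 5.56%. Leaving out a bird gave 1 to 4 of 34, beside 1.98% to 3.78% of all genes. The 1 was UCP3 without bird 2, and UCP3 dropped out without bird 3. Fewer birds can only narrow a range. The male was called against the females in 2 probe sets with an intensity trend in limma and in 5 with only probe sets made for a single transcript, and none of these was a carrier. The smallest adjusted p of a carrier lay between 0.167 and 0.382 over the main setting and the alternatives. With only the latter the male minus females difference was 0.34 for SLC25A36 and 0.023 for SLC25A37, against -1.05 and -1.96. The SLC25A37 value then rested on a probe set in the dimmest 25%. Over the alternatives run, UCP3, SLC25A42 and SLC25A15 kept their sign. Leaving out a female could not turn it, because the male lay outside both females. UCP3 has 1 probe set, so choosing or averaging probe sets could not change its difference. For SLC25A42 the difference with only probe sets made for a single transcript was -0.93. That value came from 1 of the probe sets designed for opposite strands of 1 sequence, and the other gave -0.25. The median difference was -0.04 without bird 3 and 0.01 without bird 1, beside 0.05 and 0.03 over all genes. The median SD lay between 0.13 and 0.22 over all alternatives, beside 0.14 to 0.21 over all genes. The number lowest in bird 2 lay between 11 and 14, beside 31.4% to 34.1% of all genes. The number with bird 1 above bird 3, an alternative chosen after seeing the data, lay between 19 and 23, beside 48.8% to 49.1%. The single gene alternatives for SLC25A37, SLC25A42, SLC25A36 and SLC25A15 were also chosen then. Leaving out a bird left no residual degree of freedom, so those differences carry no test. No paired analysis was possible because the birds form 1 group.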
